A study of Mus musculus with 23 samples.

Results

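The 7 genes S100a8, S100a9, Ngp, Camp, Ltf, Mpo and Elane were chosen by gene symbol as genes of neutrophils and of their precursors in the marrow. Each of them was measured by 1 feature of the array, so that they make up 7 of 18688 features with a listed gene and of 22575 features in all. The study asked whether inhaled particles change gene expression in the liver, and the question addressed here is how much neutrophil granule and S100 mRNA the livers held, by group and from mouse to mouse. Livers of 23 female C57BL/6 mice aged 12 to 13 weeks were measured, of which 8 had inhaled filtered air, 8 had inhaled carbon black (CB, Printex 90) and 7 had inhaled diesel exhaust particles (DEP, NIST 2975). The particle concentration was 20 mg/m3, each exposure lasted 90 min, and there were 4 consecutive exposures, with livers taken 90 min later per the labels (the methods of the study give a slightly younger age and a shorter time). All mice were of 1 strain, were not genetically altered and were of 1 sex. The exposures fell into 3 rounds, with 2 air, 1 CB and 1 DEP mouse in round 1, 4 air, 6 CB and 2 DEP mice in round 2, and 2 air, 1 CB and 4 DEP mice in round 3. Each array compared the liver RNA of 1 mouse (Cy5, red) with a universal mouse reference RNA, a pool from mouse cell lines (Cy3, green), with no dye swap. Expression is given as the log2 ratio of liver to reference after loess normalisation, or as the Cy5 signal itself.

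Neutrophils are short-lived white blood cells that are made in the bone marrow and carry their antimicrobial proteins in granules. Mpo (myeloperoxidase) and Elane (neutrophil elastase) belong to the azurophil granules and are transcribed in early precursors in the marrow. Ltf (lactoferrin), Camp (cathelicidin) and Ngp (neutrophilic granule protein) belong to the specific granules and are transcribed at a later stage. S100a8 and S100a9 encode the calcium-binding proteins that pair as calprotectin in the cytosol of neutrophils and monocytes, and their mRNA persists in mature cells of the blood. In whole liver, fewer neutrophils and less mRNA per neutrophil cannot be told apart.

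The genes differed in how far the liver signal rose above the limit of detection. The authors flagged a spot as absent when its signal lay under a limit set from the negative control probe, and 17.3% to 46.6% of all features were flagged absent in Cy5 on the single arrays. S100a9 was above the limit on 23 of 23 arrays and Elane on 21. Ltf passed it on 13 arrays, Mpo on 11 and S100a8 on 9. Ngp passed it on 1 array, from an air mouse, and Camp on 0 arrays, so that these 2 genes have only an upper bound in the liver and no fold change is given for them. Hepatocyte genes served as a check of the tissue, with Alb and Fgb at the ceiling of the scanner on 23 of 23 arrays. Of the 7 genes taken as neutrophil markers, S100a9 was thus the only one above the limit in all mice.

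**Figure D1:**
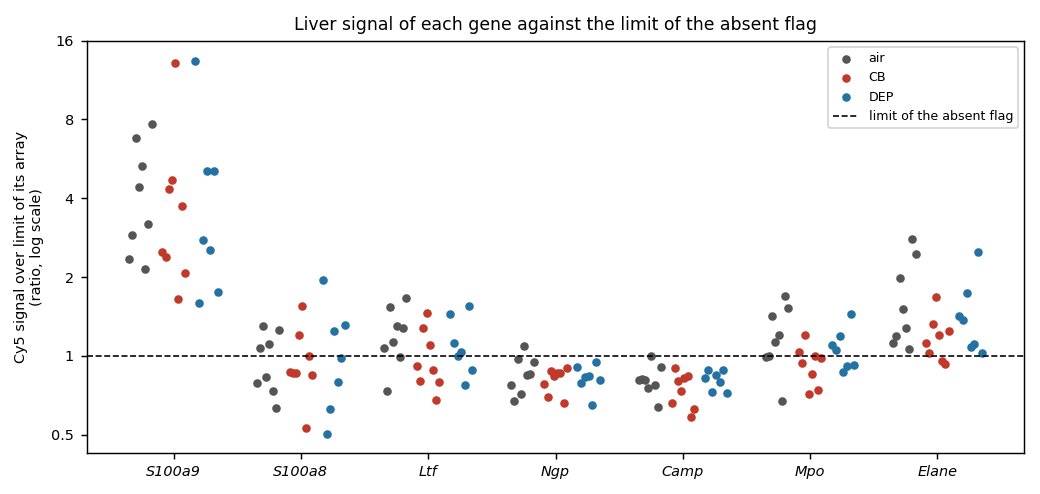
Cy5 signal of each gene divided by the highest signal flagged absent on the same array (log scale), with 1 point per mouse and the groups in colour. S100a9 lies above the dashed limit on 23 of 23 arrays, while Camp lies on or under it on 23 of 23 arrays and Ngp on 22.

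S100a9 and S100a8 lie near each other on chromosome 3, on opposite strands. The 250 bases before the transcription start of each gene are shown because these 2 genes encode the partners of calprotectin and their liver signals, though not their log2 ratios, passed the test of a correlation described further on, with S100a8 flagged absent on 14 of 23 arrays. The sequences are from RefSeq (GRCm38.p6) and read 5′ to 3′ towards the gene. Capitals mark matches to the letters TTNNGNAA, a loose form of the site bound by C/EBP factors of myeloid cells, on either strand, and to TATAAA. S100a8 is at chr3:90668821-90669070 on the plus strand, and S100a9 is at chr3:90695722-90695971 on the minus strand.
S100a8: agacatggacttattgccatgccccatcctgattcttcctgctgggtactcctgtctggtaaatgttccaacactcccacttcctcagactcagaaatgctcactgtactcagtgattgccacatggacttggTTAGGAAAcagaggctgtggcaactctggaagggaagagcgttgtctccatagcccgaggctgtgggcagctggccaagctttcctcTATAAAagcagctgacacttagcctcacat
S100a9: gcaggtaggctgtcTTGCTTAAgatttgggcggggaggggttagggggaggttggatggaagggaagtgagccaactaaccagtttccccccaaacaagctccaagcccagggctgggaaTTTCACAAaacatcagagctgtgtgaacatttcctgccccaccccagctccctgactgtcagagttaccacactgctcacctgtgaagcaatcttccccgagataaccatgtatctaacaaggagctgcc
The S100a8 window held 1 match to TTNNGNAA and 1 to TATAAA, and the S100a9 window held 2 matches to TTNNGNAA and 0 to TATAAA. Matches to TTNNGNAA were also in the windows of Ngp (3) and Ltf (2), and there were 0 in those of Camp, Mpo and Elane. Of all 32851 promoter windows of this length, 36.8% held TTNNGNAA and 12.4% held TATAAA, so a match is common and is given only as a description.

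S100a9 was well expressed and varied widely between mice of the same group. Its Cy5 signal was lowest at 492.5, median 782 and highest at 1568.5 in air mice. In CB mice it was 415.5 at the lowest, 688 at the median and 2760 at the highest. In DEP mice it was 451.5 at the lowest, 601 at the median and 2807 at the highest. The high ends of the particle groups were single animals, CB mouse 445 and DEP mouse 51, and the other particle-exposed mice lay within the range of the air mice or just under it, so that the 3 groups overlapped. On the ratio scale S100a9 was 1.66 ± 0.56 (SD, n = 8) in air mice, 1.79 ± 0.98 (n = 8) in CB mice and 1.71 ± 0.87 (n = 7) in DEP mice, as log2 of liver over reference. The log2 difference of CB from air was 0.13 (SE 0.37, 95% confidence interval -0.63 to 0.90, limma adjusted p = 0.976), and that of DEP from air was 0.053 (SE 0.38, interval -0.74 to 0.85, limma adjusted p = 0.997). Without CB mouse 445 the CB difference was -0.18, and without DEP mouse 51 the DEP difference was -0.20. Within round 2 it was -0.13 for CB and -0.21 for DEP. Within round 3 it was -0.30 for CB, from 1 mouse, and 0.63 for DEP, so the DEP difference had opposite signs in the 2 rounds, with limma adjusted p of 0.997 and 0.931. The group means ran from CB through DEP to air, whereas the median log2 ratios ran from air (1.72) through DEP (1.57) to CB (1.48). In neither order did neighbours differ beyond their spread.

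The spread of S100a9 between mice stood out among genes. Its residual SD within groups was 0.82 on the log2 scale, against a median of 0.24 over all 18688 features, and 98.9% of the features varied less. S100a8 followed with a residual SD of 0.47, at which 92.2% of the features varied less, and Ltf with 0.33, at which 78.5% varied less. The mice with the highest log2 ratios were CB mouse 445 at 3.96, DEP mouse 51 at 3.22 and DEP mouse 57 at 2.47, followed by air mouse 835433 at 2.25. The lowest were air mouse 835432 at 0.68, DEP mouse 55 at 0.73 and CB mouse 446 at 0.90. High and low mice therefore came from all 3 groups, and they also came from different rounds, with ranges of 0.73 to 3.96 in round 1 (n = 4), 0.90 to 2.24 in round 2 (n = 12) and 0.68 to 3.22 in round 3 (n = 7). This variation of S100a9 lay in the liver channel, where it had an SD of 0.70 on the log2 scale across the 23 mice, against 0.18 in the reference channel. For Ltf the SD was 0.22 in the liver channel and 0.23 in the reference channel. Its log2 ratio had r = 0.51 with its liver signal and -0.65 with its reference signal.

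S100a8, the partner of S100a9, gave a weaker liver signal that was under the limit of detection in most mice. Its Cy5 signal ranged from 133 to 300 (median 181) in air mice, from 133 to 326 (median 196) in CB mice and from 135 to 409 (median 183) in DEP mice. The spot was above the limit in 4 of 8 air, 2 of 8 CB and 3 of 7 DEP mice, and the groups overlapped over most of their range. The reference RNA itself held S100a8, with a Cy3 signal above the limit on 22 of 23 arrays, so its log2 ratio was below 0, at -0.70 ± 0.37 (n = 8) in air, -0.63 ± 0.50 (n = 8) in CB and -0.61 ± 0.54 (n = 7) in DEP mice. The log2 difference was 0.069 (SE 0.22, interval -0.38 to 0.52, limma adjusted p = 0.978) for CB and 0.088 (SE 0.23, interval -0.38 to 0.55, limma adjusted p = 0.997) for DEP. The Cy3 signal of S100a8 ran from 127 to 591.5 over arrays that carried the same reference RNA. Across mice the log2 ratio of S100a8 followed its reference signal (r = -0.42) about as much as its liver signal (r = 0.54), as a description over 23 mice that share these signals.

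Ltf, Ngp and Camp, the specific granule genes, were close to or under the limit. The Ltf signal ran from 144 to 355 (median 238) in air mice, from 167 to 350 (median 213) in CB mice and from 168.5 to 316.5 (median 272) in DEP mice. It was above the limit in 6 of 8 air, 3 of 8 CB and 4 of 7 DEP mice, and the groups overlapped. The log2 ratio of Ltf was 0.20 ± 0.28 in air, 0.096 ± 0.35 in CB and 0.30 ± 0.34 in DEP mice, with differences from air of -0.11 (SE 0.16) for CB and 0.093 (SE 0.16) for DEP. The limma adjusted p was 0.949 and 0.997. Ngp had Cy5 signals of 132 to 227 and Camp of 134 to 250 over all 23 mice, a range that lay with few exceptions under the limit of each array.

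Mpo and Elane, the azurophil granule genes, varied little. The Mpo signal was 154 to 356.5 (median 228) in air, 171.5 to 250 (median 215) in CB and 200 to 297 (median 255) in DEP mice. The spot was above the limit in 5 of 8 air, 2 of 8 CB and 4 of 7 DEP mice. Mpo had the smallest p among the members, with a log2 difference of -0.19 (SE 0.11, interval -0.42 to 0.041) for CB, an unadjusted p of 0.103 and an adjusted p of 0.877 by limma. The Elane signal was 235 to 590 (median 274) in air, 213 to 404.5 (median 255) in CB and 243 to 465 (median 298) in DEP mice. It was above the limit in 8 of 8 air, 6 of 8 CB and 7 of 7 DEP mice, and its log2 differences were -0.14 (SE 0.11) for CB and -0.014 (SE 0.11) for DEP, with limma adjusted p of 0.898 and 0.997. The residual SD of Mpo (0.22) and Elane (0.22) was near the median of all features, and the groups overlapped for both genes.

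**Figure D2:**
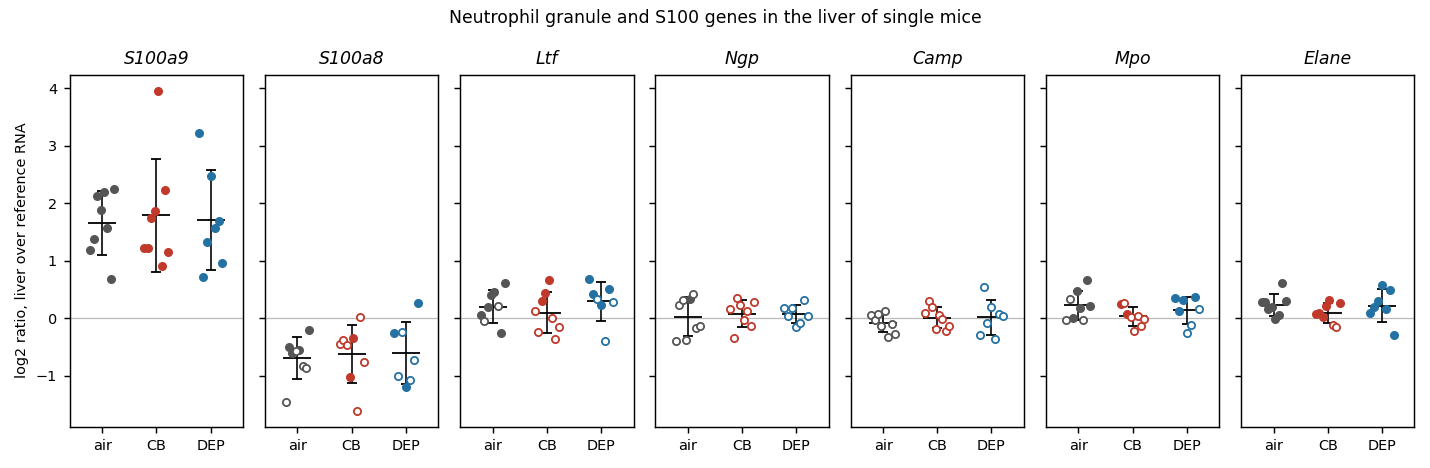
Log2 ratio of liver over reference RNA for each gene, with 1 point per mouse, open where the liver spot was flagged absent, and bars for mean and SD of 8 air, 8 CB and 7 DEP mice. S100a9 spreads from 0.68 to 3.96 with CB mouse 445 and DEP mouse 51 at the top, and for each of the 7 genes the groups overlap.

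No member passed the test in any comparison, and neither did any other feature. At an adjusted p of 0.05, limma called 0 of 7 members and 0 of 18688 features (0%) for CB against air, and the counts were the same for DEP against air, CB against DEP, and the particle groups combined. Before adjustment, a p under 0.05 was reached by 0 of 7 members in each comparison and by 1110 features (5.94%) for CB, 900 (4.82%) for DEP, 643 (3.44%) for CB against DEP and 1128 (6.04%) for both particle groups. The Fs statistic with shuffled residuals, modelled on the methods of the study and run here with 100 shuffles, also called 0 members and 0 features. It gave 1117 features at an unadjusted p under 0.05 for CB and 895 for DEP. The study itself reported small numbers of genes past an adjusted p of 0.05 for each particle, over a different set of features. It held that most of them were possibly false positives. Between CB and DEP the difference of S100a9 was 0.078 on the log2 scale (SE 0.38, interval -0.71 to 0.87) and that of Ltf -0.20 (SE 0.16, interval -0.53 to 0.13). The 95% intervals for S100a9 reach from about -0.74 to 0.90 on the log2 scale, so changes inside that range remain compatible with these data. These intervals do not give the size of change that the adjusted test would have called. The intervals of Mpo, Ltf and S100a8 come from spots flagged absent on 10 to 14 arrays and give no tighter bound on a change in the liver.

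**Figure D3:**
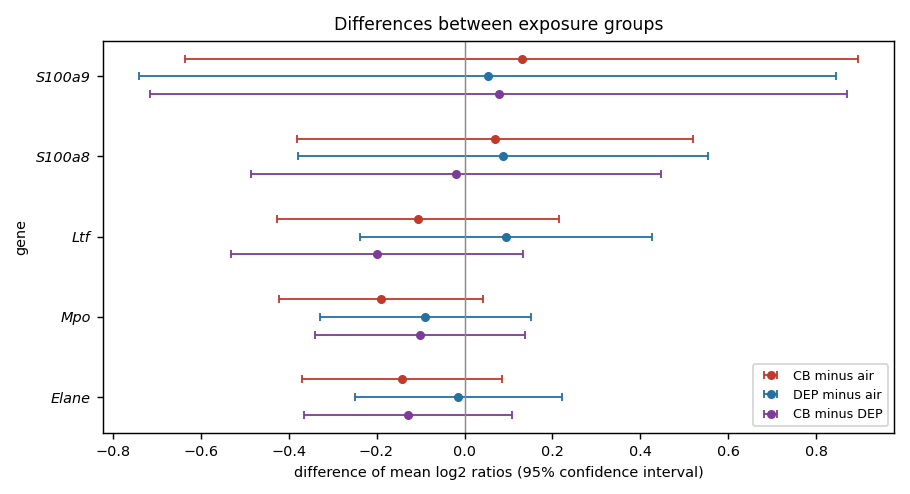
Differences of group means on the log2 scale (points) with 95% confidence intervals (bars) for the 5 genes above the limit of detection on more than 1 array. The 15 intervals span 0, and those of S100a9 are the widest, from -0.74 to 0.90.

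Covariation across mice was examined to see whether the members rose and fell together with the neutrophil content of each liver. In the log2 ratios, of the 21 pairs of members, 13 had a positive and 8 a negative Pearson r over 23 mice, with a median r of 0.077 and a range of -0.35 to 0.52. The pairs with Ngp or Camp are among them, whose liver spots were flagged absent on 22 and 23 arrays. Those pairs cannot show whether liver mRNA rose and fell together, and they enter the counts and the median. By a two-sided permutation test with 100000 resamples, 0 of 21 pairs had an adjusted p under 0.05, and 1 pair did before adjustment. That pair was S100a9 and Ltf, with r = 0.52 (permutation p = 0.010, adjusted p = 0.218) and Spearman rho = 0.50 (permutation p = 0.015, adjusted p = 0.324). The relation fell to r = 0.29 without CB mouse 445 and DEP mouse 51, the mice farthest from the median of S100a9, and so rests on them in part. It was 0.21 within round 2 (n = 12) and 0.76 within round 3 (n = 7). In the liver signal alone it was 0.12, and in the reference signal alone 0.51.

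S100a8 and S100a9 had r = 0.29 (rho = 0.32) in the log2 ratios, with adjusted permutation p of 0.804 and 0.728. In the liver signal alone, set relative to the median of each array, r was 0.57 (permutation p = 0.004, adjusted p = 0.044) and rho was 0.51 (permutation p = 0.014, adjusted p = 0.073). Without the 2 mice farthest from the median of S100a8 the r was 0.72, within round 2 it was 0.66 and within round 3 it was 0.33. In the reference signal the 2 genes ran in opposite directions, with r = -0.39. The highest S100a8 signals were those of DEP mouse 51 (409), DEP mouse 835435 (360), and CB mouse 445 and DEP mouse 57 (both 326). Of these, DEP mouse 51 and CB mouse 445 were also the highest in S100a9, whereas DEP mouse 835435 ranked 21 of 23 in S100a9 signal. Because the S100a8 spot was flagged absent in 14 of 23 mice, much of this range lies under the limit of detection.

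For the remaining members no relation with S100a9 passed the test. In the log2 ratios r with S100a9 was 0.087 for Elane, 0.032 for Ngp, -0.23 for Camp and -0.35 for Mpo. In the liver signal alone 2 of 21 pairs had an adjusted permutation p under 0.05, S100a8 with S100a9 and Ngp with Camp, and the median r was 0.16. The reference signal, which holds no RNA of these mice, gave as many, 2 of 21 pairs, with a median r of 0.25. These were S100a9 with Elane (r = 0.64, adjusted permutation p = 0.022) and S100a8 with Elane (r = -0.57, adjusted permutation p = 0.045). In each channel 6 pairs had an unadjusted p under 0.05. The r of Ngp and Camp was 0.80 (permutation p = 1e-05, the smallest that 100000 resamples can give), but these genes were under the limit on 22 and 23 arrays, their log2 ratios had r = -0.051, and r was 0.42 in the reference signal. Mpo and Elane had r = 0.52 in the liver signal (adjusted permutation p = 0.066) and 0.19 in the log2 ratios. The part of spot background and of differences between arrays in these relations was not tested.

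**Figure D4:**
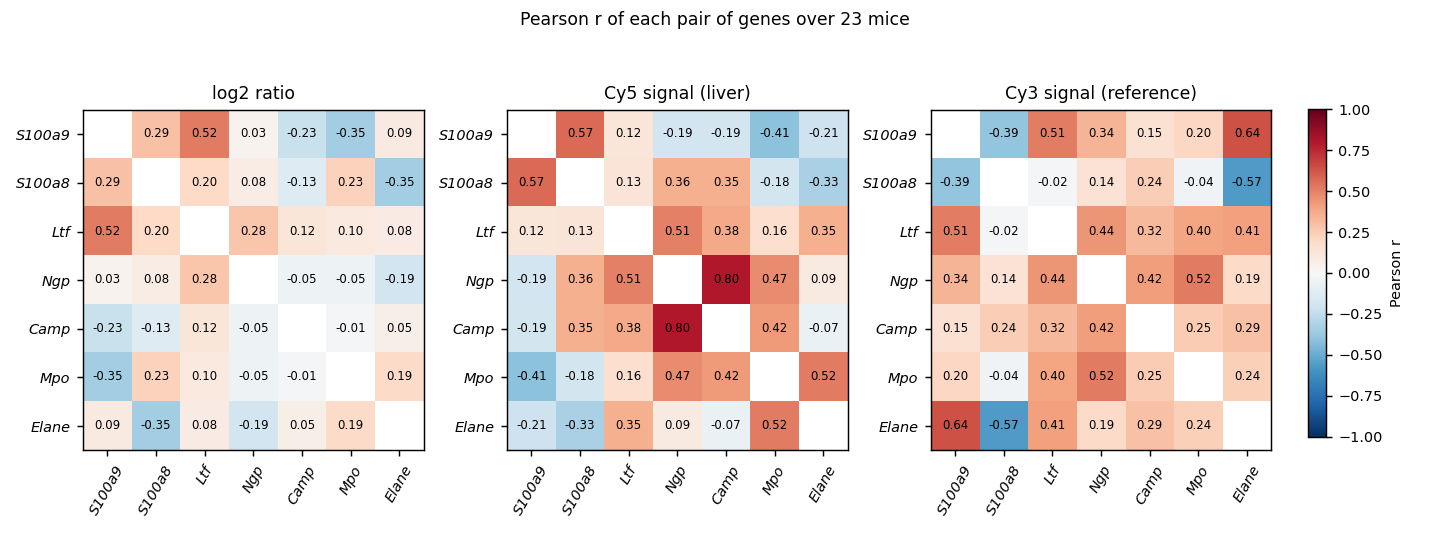
Pearson r over 23 mice for each pair of the 7 genes, in the log2 ratio, the Cy5 (liver) signal and the Cy3 (reference) signal, the signals relative to each array's median. In the log2 ratio the values lie between -0.35 and 0.52; in the liver signal S100a8 with S100a9 reaches 0.57 and Ngp with Camp 0.80, and in the reference signal S100a9 with Elane reaches 0.64.

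S100a9 and S100a8 were also set against Lcn2, Saa3 and Hbb-b2, in 6 further relations. Lcn2 encodes lipocalin, a specific granule protein of neutrophils that hepatocytes also secrete as an acute phase protein. It rose and fell with S100a9 across mice, with r = 0.63 (permutation p = 0.00077, adjusted p = 0.0046) and rho = 0.62 (permutation p = 0.0017, adjusted p = 0.010). The relation was r = 0.53 without CB mouse 445 and DEP mouse 51, 0.70 within round 2, 0.66 within round 3 and 0.62 on residuals after group and round means. In the liver signal alone it was 0.66, and in the reference signal alone -0.65. Lcn2 had the highest r with S100a9 among the 12 specific and gelatinase granule genes measured beside the members. Of these 12, 8 had a positive r, with a median of 0.19 and a lowest value of -0.35. Saa3, an inflammatory serum amyloid A gene, had r = 0.46 with S100a9 (rho = 0.45, adjusted permutation p of 0.074 and 0.093), with 0.41 without the same mice, 0.63 within round 2 and 0.21 within round 3. S100a8 had r = 0.21 with Lcn2 and 0.38 with Saa3, with adjusted permutation p of 0.346 and 0.155. Hbb-b2, a haemoglobin gene taken as a measure of blood in the tissue, had r = 0.21 with S100a9 and -0.25 with S100a8 (adjusted permutation p of 0.346 for both), and its spot was at the scanner ceiling on 9 of 23 arrays.

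**Figure D5:**
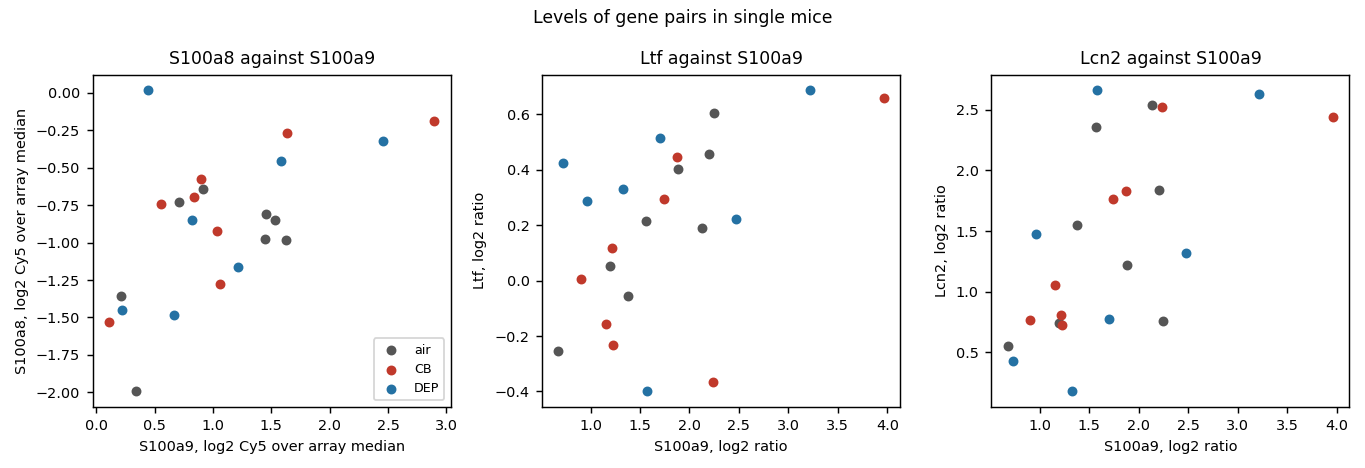
Each point is 1 mouse, coloured by group: S100a8 against S100a9 as log2 Cy5 signal relative to the array median, and Ltf and Lcn2 against S100a9 as log2 ratios. On the scales shown r is 0.57 for S100a8, 0.52 for Ltf (not past the adjusted test) and 0.63 for Lcn2; on the other scale it is 0.29 for S100a8 (log2 ratio) and 0.12 for Ltf (Cy5 signal). CB mouse 445 and DEP mouse 51 are at the right of each panel.

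Other genes of neutrophils gave 0 calls after exposure. The differences given are those of both particle groups from air, on the log2 scale, where 50.2% of all features were above 0. Of the other azurophil granule genes, 9 of 10 listed were measured, with a median of -0.043, against 0.00062 over all features, and 0 passed the test. Their smallest p values were those of Ctsg (cathepsin G, -0.14) and Bpi (bactericidal permeability-increasing protein, -0.12). Both were flagged absent on 0 arrays, and 1 of the 9 genes was flagged absent on more than 50% of the arrays. The mean Cy5 signal was 973 for Ctsg and 432 for Bpi, against 951 for S100a9. Ctsg had r = 0.13 with S100a9 across mice. Of the other specific and gelatinase granule genes 12 of 13 were measured, 6 higher and 6 lower, with a median of 0.016. Mmp8, Mmp9 and Pglyrp1 were under the limit on 19 to 22 arrays, and they were the only 3 of the 12 flagged absent on more than 50% of the arrays. Haptoglobin (Hp), Stom and Arg1 of this list had an unadjusted p under 0.05, all lower, where 3.42% of all features were lower at that level, and the smallest adjusted p was 0.297. Hp and Arg1 are also made by hepatocytes, and their spots were at the scanner ceiling on 23 and 3 arrays, so the Hp ratio does not measure a change in the liver signal. Of the receptors and adhesion molecules, 16 of 19 were measured, 8 higher and 8 lower. Ptafr (receptor of platelet-activating factor) had the smallest p, with -0.21 (unadjusted p = 0.0082, limma adjusted p = 0.752), followed by C5ar1 (receptor of complement C5a, -0.21, under the limit on 17 arrays), Itgb2 (an integrin chain, 0.11) and Ccr1 (-0.10). Csf3r, the receptor of the neutrophil growth factor, had -0.069, and Cxcr2, a chemokine receptor under the limit on 20 arrays, had 0.017. Of the oxidase and cytosolic genes, 11 of 14 were measured, 8 higher and 3 lower, with a median of 0.078, and Stfa3 (a stefin, -0.29) had the smallest p. The factors of granulocyte development (8 of 10 measured, median -0.021, with the smallest p for Csf3 at -0.17, under the limit on 15 arrays) and the chemokines that draw neutrophils (6 of 6 measured, median -0.042) gave 0 calls. Among the chemokines Cxcl1 had -0.48 (limma adjusted p = 0.910), made up of -0.95 for DEP (unadjusted p = 0.049, limma adjusted p = 0.997) and -0.018 for CB. Its r was 0.53 with S100a9 across mice, a value at the edge of the range of -0.48 to 0.53 that holds the middle 95% of all features.

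The other S100 genes and the receptors of calprotectin were likewise without a call. Of the S100 genes, 11 of 14 were measured, 5 higher and 6 lower, with a median of -0.042, and S100a11 (0.15) and S100a5 (-0.21) were among those with the smallest p. The 4 receptors Ager, Tlr4, Cd36 and Bsg differed from air by 0.046, 0.13, -0.078 and 0.18. Of the 8 acute phase genes measured, Hp was at the scanner ceiling on 23 arrays and Saa1 and Saa2 on 7, so their ratios do not fully measure the liver signal. The 5 others had a log2 difference below 0 in 4 cases for CB, 3 for DEP and 5 for both particle groups, with a median of -0.19 for both, and 0 of 5 passed the test in these comparisons. An unadjusted p under 0.05 was reached by 1 of 5 for CB and by 0 of 5 for both particle groups. Saa3 differed by -0.62 (SE 0.54) and Lcn2 by -0.024 (SE 0.33), neither beyond the spread between mice. Hba-a1 and Hbb-b2 had ratios that differed by -0.55 and -0.40, with spots at the scanner ceiling on 23 and 9 arrays, so these values do not fully measure the liver signal.

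Markers of other cells were set beside S100a9 across mice, as a description with no test. Of the Kupffer cell and macrophage markers, 10 of 11 had a positive r with S100a9, with a median of 0.43, the highest being Clec4f (0.54) and C1qb (0.48). Of the endothelial markers, 6 of 7 had a positive r, with a median of 0.38, among them Vwf (0.57) and Stab2 (0.54). A positive r was also found for 6 of 8 T and NK cell markers (median 0.18) and 6 of 7 erythroid markers (0.21). It was found for 5 of 8 eosinophil, basophil and mast cell markers (0.14) and 2 of 6 B cell markers (-0.066). For platelet markers it was 3 of 7 (-0.052), and for hepatocyte markers 3 of 7 (-0.052). Over all features the median r was 0.030, and the middle range given above for Cxcl1 was -0.48 to 0.53. That range is one of single features and so gives no measure for the median of a list. Of the markers named, Clec4f, Vwf and Stab2 lay above it and C1qb lay inside it. The summed macrophage signal relative to the array median ran from 97.9 to 203 in air, 75.8 to 185 in CB and 66.5 to 246 in DEP mice, so that it overlapped between groups. The part of other cell types in the S100a9 pattern was not tested.

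The features most like S100a9 over the 23 mice, among 13668 features flagged absent on no more than 50% of the arrays, were Tifa (r = 0.80), an adaptor of TRAF signalling, Rasgrp2 (0.78), an exchange factor for Rap, Prpf4b (0.78), a kinase of the splicing machinery, Litaf (0.77), a protein induced by lipopolysaccharide, and Slc25a15 (0.75), the mitochondrial ornithine carrier. No member of the group was among them: Ltf ranked 552 and S100a8 ranked 3350 of 18687 features by r with S100a9. Tifa kept r = 0.81 in the liver signal alone, and the others had 0.45 to 0.60.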

How the data were processed

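The deposited tables hold, per array of 1 mouse, the Cy5 and Cy3 spot intensity, flags and a log2 ratio. Per the labels and the methods of the study, the authors read the spots with ImaGene, subtracted no background, flagged a spot absent under the trimmed mean of the negative control plus a multiple of its SD, and made the log2 ratio by lowess in R 2.4.1. The deposited series table held the same log2 values. Features with a listed gene (18688) were used; 3887 without one were left out. Log2(Cy5/Cy3) was normalised by loess within each array, and air, CB and DEP were compared in 1 model of 23 mice with limma 3.58.1 (R 4.3.3) and Benjamini-Hochberg adjustment over all 18688 features at a threshold of 0.05. Correlations used two-sided permutation tests with 100000 resamples and Benjamini-Hochberg adjustment over 21 pairs of members and over 6 further pairs. The number of arrays limits the precision. The members and gene lists were chosen with earlier results of these data known. Named are the members, in each related list up to 4 of the genes with the smallest p for both particle groups, the 5 features most like each member, and Saa3, Lcn2 and the haemoglobin genes; other genes named were chosen after their values were seen. For genes with several features the brightest was used. Alternatives covered normalisation, dim features, rounds, array sets, exposure days, array weights, the test and single mice.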

Additional observations from a re-analysis of the deposited data

Results flagged for a closer look

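S100a9 in CB mouse 445 had a log2 ratio of 3.96, with the next CB mouse at 2.24, a gap of 0.56 of the range of the group against a critical value of 0.526 for 8 mice. Ltf in DEP mouse 444 had a log2 ratio of -0.40, with the next DEP mouse at 0.22, a gap of 0.57 of the range against a critical value of 0.568 for 7 mice, and its liver spot was flagged absent. These were 2 of 21 combinations of gene and group examined, and chance alone singles out about 1 in 20.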

How the results depend on the processing

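The count of members past the threshold stayed at 0 under all alternatives run, in all 4 comparisons. Of 247 recomputed log2 fold changes of S100a8, S100a9, Ltf, Mpo and Elane, 218 kept their direction and 29 changed sign, with 0 past the threshold and a smallest adjusted p of 0.473. The sign changes were these. With median centring in place of loess, S100a9 was -0.035 for CB, -0.011 for DEP, -0.024 for CB against DEP and -0.023 for both particle groups, and Ltf was 0.037 for both. In the Cy5 signal alone, Mpo was 0.048 and Elane 0.015 for DEP, S100a8 0.039 for CB against DEP and Ltf 0.028 for both particle groups. With the exposure round as a block, S100a8 was 0.060 for CB against DEP and Ltf 0.012 for both particle groups. With the array set as a block, S100a8 was 0.042 and S100a9 -0.16 for CB against DEP, and Ltf 0.0019 for both particle groups. Within round 2, S100a9 was -0.13 for CB, -0.21 for DEP and -0.17 for both, Ltf -0.25 for DEP and 0.078 for CB against DEP, Elane 0.045 for DEP and S100a8 0.0055 for CB against DEP. Within round 3, S100a8 was -0.23 for CB and -0.088 for both, S100a9 -0.30 for CB and -0.93 for CB against DEP (0.63 for DEP, with no change of sign), and Elane 0.040 for CB against DEP. With array weights, S100a9 was -0.035 for CB, -0.055 for CB against DEP and -0.0073 for both. Without single mice, S100a9 ran from -0.18 to 0.26 for CB, -0.20 to 0.22 for DEP, -0.23 to 0.33 for CB against DEP and -0.064 to 0.18 for both. S100a8 ran from -0.039 to 0.21, -0.057 to 0.19, -0.12 to 0.13 and -0.030 to 0.15 in the same order, Ltf from -0.071 to 0.052 for both and Elane from -0.074 to 0.072 for DEP. The causes were not tested.

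The number of all features past the threshold, 0 in each comparison, became 285 for CB and 46 for both particle groups with median centring, 1 for both with the filter on dim features, 50 for CB and 100 for CB against DEP within round 3, where CB was 1 mouse assumed to vary like the others, and 1 for CB with array weights. Without single mice it was 0 to 1 for CB and 0 to 2 for both. Pairs of members with an adjusted p under 0.05 went from 0 to 2 in the Cy5 signal alone, were 2 in the Cy3 reference signal alone (a comparison chosen after seeing the data) and were 0 to 1 without single mice. S100a9 and Ltf passed without CB mouse 835052 (r = 0.62, adjusted permutation p = 0.034). S100a9 with Saa3 passed in the Cy5 signal (r = 0.57), without air mouse 443 (r = 0.51) and without DEP mouse 57 (r = 0.53), and S100a9 with Lcn2 did not pass within round 2 (r = 0.70, adjusted permutation p = 0.068). No paired analysis was possible because the groups share no replicate numbers. The liver signal limits S100a8, Ltf and Mpo, and gives only bounds for Ngp and Camp.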

Other observations

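The features most like the other members by Pearson r over 23 mice had r of 0.59 to 0.77. They were led by Tsc22d2 for S100a8 (0.73), Arhgap6 for Ltf (0.77), Olfr1086 for Mpo (0.71), Rasal1 for Elane (0.75), Cpb1 for Ngp (0.67) and Klhdc3 for Camp (0.73). In the liver signal alone these r values were 0.43, 0.23, 0.69, 0.64, -0.054 and -0.059. Of the other azurophil granule genes, 5 of 9 had a positive r with S100a9 across mice, with a median of 0.13. For the other specific and gelatinase granule genes it was 8 of 12 (median 0.19), and for the factors of granulocyte development 2 of 8 (median -0.24). Of the neutrophil receptor and adhesion genes, 8 of 16 had a positive r with S100a9 across mice. They ran from Selplg (-0.53) to Ltb4r1 (0.50), with a median of -0.0049, and Cxcr2 had 0.48. Among the oxidase and cytosolic genes, 1 of 11 had a positive r, with a median of -0.093 and the lowest for Lsp1 (-0.65). The other S100 genes had a positive r in 7 of 11 cases, from S100a5 (-0.56) to S100a4 (0.42). Over all features the median r with S100a9 was 0.030.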
